A study of Homo sapiens with 20 samples.

Results

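ChIP-seq peaks of STAG2 and CTCF in STAG2 WT M14 cells were set against each other, so as to separate CTCF-bound STAG2 sites, CTCF-free STAG2 sites and CTCF sites without STAG2. M14 is an established human melanoma line, and the cells used carry a doxycycline-inducible shRNA against STAG2. Per the labels of replicate 1, WT cells had no doxycycline and STAG2 KD cells had it for 5 d, so both share the shRNA and differ in its induction. The labels of replicate 2 give only the genotype, wild type or STAG2-KD. Each antibody had 2 WT libraries, called replicate 1 and replicate 2 here, which were prepared and processed in different ways. Replicate 1 held 79048 STAG2 and 86248 CTCF sites on chromosomes 1 to 22 and X, and replicate 2 held 118984 and 122299, which gives 406579 of the 1599606 sites in the 16 lists of the series. A STAG2 site was called CTCF-bound where its interval overlapped a CTCF interval of the same replicate by at least 1 bp, and all other STAG2 sites were called CTCF-free. The values are those of 1 cell line in 2 preparations, and nothing in the labels says whether these were separate cultures, so each SD below measures the spread between 2 libraries, which may be technical.

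Cohesin is a ring-shaped complex that extrudes loops of chromatin and also holds sister chromatids together. SMC1A is a subunit of the ring, and each ring carries either STAG1 or STAG2. CTCF is a zinc finger protein that binds a long, directional DNA motif and halts cohesin that arrives from the 3′ side of that motif, which is why cohesin and CTCF share many sites. Cohesin also lies away from CTCF, at active promoters and enhancers where it is loaded or passes through. STAG2 is often mutated in cancer, melanoma included.

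The following hg19 reference sequences of 151 bp are centred on the replicate 1 summit, which is the position of highest pileup, and are written 5′ to 3′ on the plus strand. They show the leading sites of each class, ranked by p-value in both replicates, on chromosomes other than 8 and outside the untranslated part of coding genes. In CTCF-bound STAG2 sites, capitals mark a closest match to an 11-base CTCF core, with at most 1 mismatch, on either strand. The first sequence holds the same 11 bases once more, nearer its start, where they are not marked.
Between KCTD15 and CHST8, chr19:34269057-34269207: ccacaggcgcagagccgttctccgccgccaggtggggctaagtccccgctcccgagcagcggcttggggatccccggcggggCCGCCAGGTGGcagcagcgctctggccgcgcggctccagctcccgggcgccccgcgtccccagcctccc
Near ZBTB32, chr19:36184782-36184932: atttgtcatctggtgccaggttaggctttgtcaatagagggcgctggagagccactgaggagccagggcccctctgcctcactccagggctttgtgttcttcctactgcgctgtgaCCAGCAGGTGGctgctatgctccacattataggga
Intron of CORO7, chr16:4452746-4452896: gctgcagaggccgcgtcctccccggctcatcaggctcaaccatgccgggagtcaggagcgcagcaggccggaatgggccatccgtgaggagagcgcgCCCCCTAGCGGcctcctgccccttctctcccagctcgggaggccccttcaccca

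By the same rule, with at most 1 mismatch, 4 of the 5 sequences shown next, from leading CTCF-free STAG2 sites, held no match to the core, and the SOX6 sequence held 1, with 1 mismatch. In these sequences, capitals mark matches on either strand to the other short motifs searched, which were GGGCGG and CCGGAAG in the first, the RUNX motif TGTGGT in the second and the third, CCGGAAG in the fourth, and the TEAD motif GGAATG in the fifth.
Promoter of the noncoding gene ENSG00000249483, chr5:81147750-81147900: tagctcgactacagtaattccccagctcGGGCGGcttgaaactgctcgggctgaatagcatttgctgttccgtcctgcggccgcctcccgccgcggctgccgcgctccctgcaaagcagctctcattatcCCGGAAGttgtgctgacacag
Promoter of TBL1X, chrX:9431024-9431174: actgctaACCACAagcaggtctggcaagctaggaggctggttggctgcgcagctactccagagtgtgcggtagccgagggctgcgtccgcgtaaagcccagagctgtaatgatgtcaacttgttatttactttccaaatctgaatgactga
Promoter of ENSG00000237525, within LINC00607, chr2:216545818-216545968: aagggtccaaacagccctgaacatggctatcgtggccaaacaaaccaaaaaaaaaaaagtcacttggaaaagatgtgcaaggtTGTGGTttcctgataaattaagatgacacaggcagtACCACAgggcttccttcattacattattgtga
Intergenic, near LINC02038, chr3:193587672-193587822: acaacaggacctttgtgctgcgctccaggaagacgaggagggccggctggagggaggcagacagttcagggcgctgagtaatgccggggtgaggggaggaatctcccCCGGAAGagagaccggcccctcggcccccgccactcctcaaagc
Intron of SOX6, chr11:16170137-16170287: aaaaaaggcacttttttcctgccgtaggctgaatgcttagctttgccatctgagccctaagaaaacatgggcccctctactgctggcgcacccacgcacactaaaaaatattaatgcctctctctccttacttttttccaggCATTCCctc

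Strong CTCF sites that lacked STAG2 in both replicates again held the core, marked in capitals with at most 1 mismatch.
Promoter of the T-cell receptor segment TRAV8-3, chr14:22320382-22320532: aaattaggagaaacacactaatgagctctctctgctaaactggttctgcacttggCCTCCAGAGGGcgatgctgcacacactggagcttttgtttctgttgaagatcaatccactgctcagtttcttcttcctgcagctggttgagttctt
Intergenic, near ITM2C, chr2:231714887-231715037: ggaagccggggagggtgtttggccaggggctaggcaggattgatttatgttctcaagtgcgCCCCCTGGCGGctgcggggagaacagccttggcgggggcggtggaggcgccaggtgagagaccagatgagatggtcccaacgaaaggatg

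The first question was how much of STAG2 binding lies at CTCF and how much of CTCF binding carries STAG2. Most STAG2 sites were CTCF-bound: 57397 of 79048 in replicate 1 and 81690 of 118984 in replicate 2. These are 72.6% (95% Wilson interval 72.3 to 72.9) and 68.7% (68.4 to 68.9), with a mean of 70.6% ± 2.80 (SD, n = 2). Of the CTCF sites, 66.6% (57468 of 86248) carried STAG2 in replicate 1 and 67.6% (82728 of 122299) in replicate 2. CTCF sites without STAG2 thus made up 33.4% (33.1 to 33.7) and 32.4% (32.1 to 32.6), with a mean of 32.9% ± 0.716 (SD, n = 2). Intervals cover counting error alone. The WT STAG2 and CTCF libraries were used by the peak caller at about 38.6 and 20.2 M reads in replicate 1 and 63.0 and 37.4 M in replicate 2, as recovered from the lists under assumptions given with the methods. With 1 list per antibody and replicate no test across libraries was made: 2 pairs cannot give a two-sided exact p below 0.5.

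CTCF-bound STAG2 sites were the stronger class. CTCF-bound STAG2 sites had a median fold enrichment over background of 13.0 and 6.82 (replicates 1 and 2), and CTCF-free sites had 4.78 and 3.20. As a percentile of p-value within its list, the median CTCF-bound site stood at 63.5 and 64.0 and the median CTCF-free site at 21.6 and 26.2, a difference of 39.9 percentile points ± 2.85 (SD, n = 2). CTCF showed the same order: sites with STAG2 had a median CTCF fold of 29.8 and 14.3, and sites without STAG2 6.15 and 3.88. The percentile difference was 42.5 ± 1.07 (SD, n = 2). A site of lower fold can be bound in fewer cells, bound less often in each cell, or be background that passed the threshold. These cannot be told apart here. The weakest STAG2 sites had a −log10 q-value of 2.01 in replicate 1 and 0.387 in replicate 2, and the part of background among them was not tested. CTCF-free STAG2 sites were also narrower, with a median width of 241 and 346 bp against 448 and 670 bp. A wider interval meets a CTCF peak more easily under the overlap rule, and the part of this in the widths was not tested.

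Divided into deciles by p-value, the CTCF-bound share of STAG2 sites rose from 31.0% in the weakest decile to 100% of 7905 sites in the strongest in replicate 1, and from 35.9% to 100% of 11908 sites in replicate 2. In the next decile down, 1 of 7907 sites was CTCF-free in replicate 1 and 52 of 11899 in replicate 2. CTCF peaks followed STAG2 in the same way, with STAG2 at 25.5% and 30.9% of the weakest decile and at all but 3 of 8627 and all but 2 of 12231 of the strongest. No CTCF-free STAG2 site of either replicate stood in the top decile of its list.

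**Figure D1:**
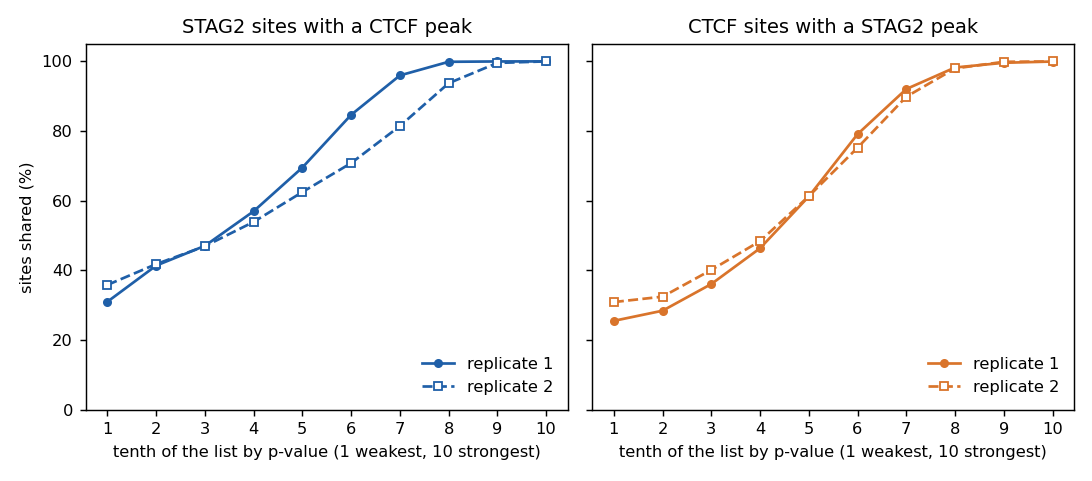
Share of STAG2 sites with a CTCF peak (left) and of CTCF sites with a STAG2 peak (right), in percent, for each decile of the list ranked by p-value, with replicate 1 as solid and replicate 2 as dashed lines. Both shares rise with strength and reach 100% of STAG2 sites in the strongest decile in each replicate.

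Many CTCF-free calls changed between replicates. Of the CTCF-free STAG2 sites of replicate 1, 98.5% were also STAG2 sites in replicate 2, but 31.8% overlapped a CTCF peak of replicate 2, whose CTCF list was longer and whose CTCF intervals were wider (median 556 against 390 bp). In the other direction, 29.4% of the CTCF-free sites of replicate 2 were in the STAG2 list of replicate 1, and 99.4% of those were CTCF-free there too. Of the CTCF-free sites of replicate 1 found in replicate 2, 55.9% were CTCF-free there. For CTCF-bound sites, 97.9% of those in replicate 1 were found in replicate 2, and 99.9% of the ones found were CTCF-bound there. From replicate 2 to 1, 73.4% of CTCF-bound sites were found and 89.7% of those kept their class, so the order of the classes depended on the direction. In all, 56166 STAG2 sites were CTCF-bound in both replicates. With no CTCF peak of either replicate, 2238 promoter sites and 9676 sites away from promoters were STAG2 sites in both. For CTCF, 13502 sites of both replicates had no STAG2 peak in either.

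Summits of STAG2 and CTCF at shared sites were close, with a median distance of 22 bp in replicate 1 and 48 bp in replicate 2. CTCF-free STAG2 summits lay a median of 7.89 and 5.95 kb from the nearest CTCF summit, and 15.1% and 11.3% of them lay within 1 kb of one. At promoters the distance was shorter, 2.90 and 2.83 kb, than in intergenic DNA, 11.9 and 7.73 kb.

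CTCF-free STAG2 sites differed from CTCF-bound ones in the motifs at the summit. The 11-base CTCF core lay within 100 bp of 24.4% and 17.7% of CTCF-bound STAG2 summits (replicates 1 and 2), and of 1.11% and 0.563% of CTCF-free ones. In windows 5 kb away it was found at 0.633% and 0.552% of the CTCF-free sites. With 1 mismatch allowed it was found at 65.8% and 53.6% of CTCF-bound and 15.0% and 10.9% of CTCF-free sites, against 8.84% and 8.58% 5 kb from the latter. The exact core misses many CTCF sites, so these shares serve for comparison between classes.

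AP-1, the FOS and JUN family factor that acts at many enhancers, showed the reverse. Its motif TGANTCA lay at 16.1% and 17.3% of CTCF-free STAG2 summits, at 5.79% and 6.85% of CTCF-bound ones, and at 6.18% and 6.29% of the CTCF-free windows 5 kb away. At intronic CTCF-free sites the AP-1 share was 20.02% and 18.6%, at intergenic ones 19.8% and 19.6%, and at exonic ones 17.0% and 17.9%. At CTCF-free promoter sites it was 7.59% and 10.3%. The RUNX motif TGTGGT lay at 18.2% and 18.9% of CTCF-free and 13.5% and 13.6% of CTCF-bound summits, with 13.7% and 13.9% 5 kb from CTCF-free ones. The SOX motif ACAATG was found at 12.7% and 14.5% of CTCF-free against 9.02% and 9.36% of CTCF-bound summits. Windows 5 kb from either class had it at 10.98% to 11.4%, so its share was above these windows at CTCF-free and below them at CTCF-bound summits. The TEAD motif GGAATG lay at 14.7% and 14.4% against 11.02% and 11.2%, with 10.9% 5 kb from CTCF-free sites in both replicates. SOX factors such as SOX10 mark the melanocyte lineage, and TEAD factors act with YAP, but the short motifs do not tell family members apart. Over all places, shares of the GC box GGGCGG, a Sp1 element of promoters, went in opposite directions in the replicates: 15.9% at CTCF-free and 14.4% at CTCF-bound summits in replicate 1, and 7.27% and 13.6% in replicate 2. Promoter sites alone also turned, at 41.4% against 38.9% and 24.4% against 38.8%. Elsewhere CTCF-free sites had the lower share in both replicates. It was 4.49% against 5.83% and 3.14% against 5.02% in introns, and 4.31% against 7.60% and 3.39% against 6.56% in intergenic DNA. In exons it was 7.83% against 10.6% and 5.18% against 9.83%. The ETS motif CCGGAAG also went in opposite directions over all places, at 3.15% against 2.10% and 1.61% against 2.11%. The E-box CACGTG, read by MITF and MYC among others, lay at 3.39% and 2.74% of CTCF-free and 3.00% and 2.88% of CTCF-bound summits, again in opposite directions. The NRF1 motif GCGCATGC was rare in both classes, at 0.346% to 0.540% of summits. None of the spelled motifs is contained in another, and a match is not evidence that a factor was bound.

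**Figure D2:**
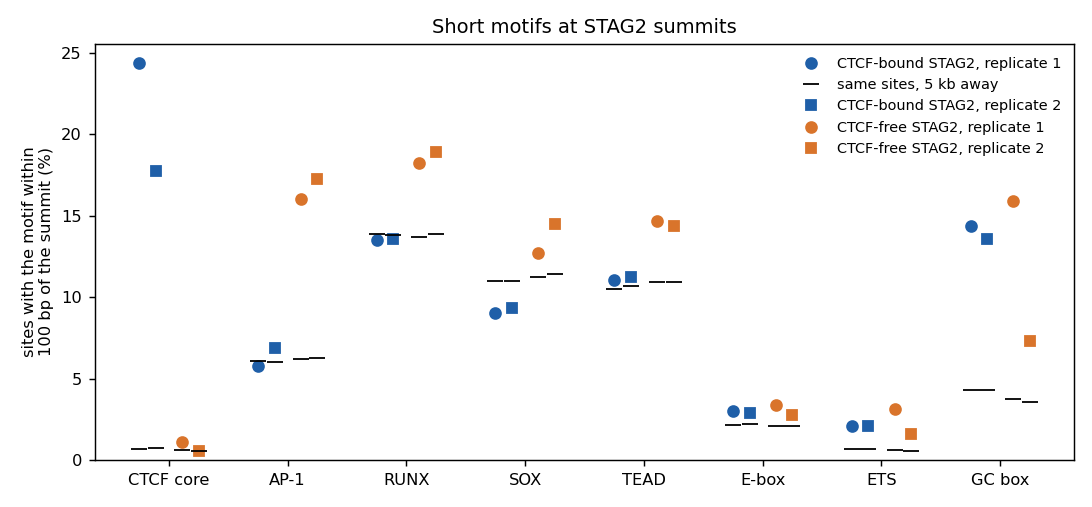
Share of CTCF-bound (blue) and CTCF-free (orange) STAG2 sites with each short motif within 100 bp of the summit, in percent, for replicate 1 (circles) and replicate 2 (squares), and in windows 5 kb away (black bars). AP-1 reaches 16.1% and 17.3% at CTCF-free sites against 5.79% and 6.85% at CTCF-bound ones, while the CTCF core is at 1.11% and 0.563% of CTCF-free sites.

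Genomic place was the next comparison, where a site counted as promoter if its midpoint fell 1 kb or less from an annotated start, and otherwise as exon, intron or intergenic. CTCF-free STAG2 sites lay in introns more often than CTCF-bound ones, 45.6% against 42.2% in replicate 1 and 53.3% against 43.3% in replicate 2. They lay less often in exons, 2.83% and 3.11% against 4.94% and 4.62%, and less often in intergenic DNA, 20.8% and 24.8% against 29.2% and 28.7%. The promoter share did not hold between replicates. In replicate 1 it was 30.8% at CTCF-free and 23.6% at CTCF-bound sites, and in replicate 2 it was 18.8% and 23.3%, so that the mean difference, −1.34 points for CTCF-bound minus CTCF-free, was smaller than its SD of 8.25. The same split was seen chromosome by chromosome: the promoter share was higher at CTCF-free sites on 23 of 23 chromosomes in replicate 1 and on 3 of 23 in replicate 2.

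The promoter share moved with strength and with the length of the list. In replicate 1 it fell at CTCF-free sites from 33.9% in the weakest decile to 17.3% in the seventh, and in replicate 2 from 19.7% in the weakest to 9.13% in the eighth, while the 52 sites of the ninth were back at 19.2%. With the 79048 strongest sites of each list, CTCF-free sites had the higher promoter share in both replicates, the difference being −9.16 and −2.61 points. Averaged over all deciles, the difference was −10.3 points in replicate 1 and 7.12 points in replicate 2. In replicate 1 the eighth and ninth deciles have 9 and 1 CTCF-free sites. Averaged over deciles with at least 20 sites of each class, CTCF-bound sites had the higher promoter share in both replicates, by 2.54 and 7.12 points. This alternative was chosen after seeing the data.

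CTCF sites without STAG2 lay in exons more often than those with STAG2, 6.35% against 4.97% in replicate 1 and 6.14% against 4.58% in replicate 2. Their summits lay in coding sequence in 5.74% and 4.33% of cases, against 3.39% and 3.40%. Their promoter share was 24.1% against 24.0% in replicate 1 and 16.3% against 24.4% in replicate 2, a difference that also varied more between replicates than its mean (4.00 ± 5.86 points, SD, n = 2). In the weakest CTCF decile, promoters held 53.2% of sites with STAG2 and 27.7% without in replicate 1, and 44.4% and 17.3% in replicate 2. At stronger sites the order turned, at 18.6% and 28.2% in the seventh decile of replicate 1 and 18.4% and 24.7% in the eighth of replicate 2. Averaged over all deciles, sites with STAG2 had the higher promoter share by 0.442 and 5.11 points. In base composition, the DNA within 100 bp of CTCF-free STAG2 summits had a median GC content of 46.8% and 44.3%, against 49.3% and 48.8% at CTCF-bound ones. CTCF-bound shares also differed between chromosomes, from 69.7% of STAG2 sites on chromosome 21 to 80.3% on X in replicate 1, and from 64.2% on chromosome 6 to 76.0% on 19 in replicate 2. These extremes were not the same in both replicates. Chromosomes 21 and X were at 67.2% and 70.7% in replicate 2, and chromosomes 6 and 19 at 70.4% and 76.8% in replicate 1.

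**Figure D3:**
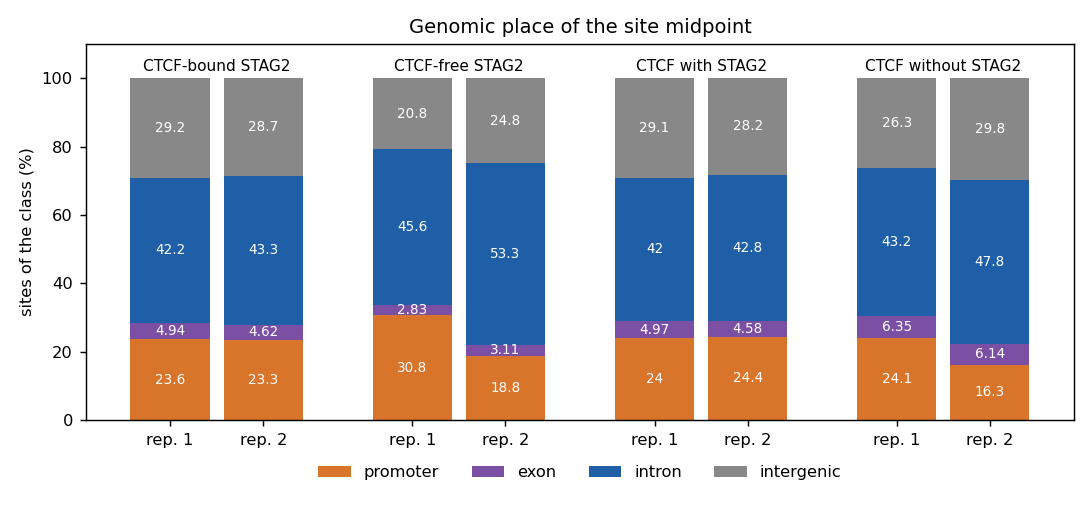
Share of sites in promoters, exons, introns and intergenic DNA, in percent of each class, for CTCF-bound and CTCF-free STAG2 sites and CTCF sites with and without STAG2, 1 bar per replicate. CTCF-free STAG2 sites are more intronic and less intergenic in both replicates, while their promoter share, 30.8% and 18.8%, lies above the CTCF-bound share in replicate 1 and below it in replicate 2.

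At CTCF sites with STAG2, the position of STAG2 was measured against the direction of the CTCF motif. Over sites with a single match to the core, the STAG2 summit lay a median of 18 bp on the 3′ side of the motif centre in replicate 1 (13811 sites) and 14 bp in replicate 2 (15281 sites), a mean of 16 bp ± 2.83 (SD, n = 2). The CTCF summit itself lay at 1 and −2 bp. Site by site, STAG2 stood 14 bp to the 3′ side of CTCF in both replicates (median).

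Where STAG1 and SMC1A peaks were present too (12353 and 13945 sites), the STAG1 summit was at 20 and 16 bp and the STAG2 summit at 18 and 15 bp, while the SMC1A summit was at 0 and 3 bp. STAG2 summits were on the 3′ side at 80.0% of these sites in replicate 1 and 60.6% in replicate 2. Positions were less sharp in replicate 2, whose middle 50% of STAG2 offsets ran from −20 to 46 bp, against 5 to 27 bp in replicate 1. In the strongest quartile of CTCF sites the STAG2 offset was 19 and 16 bp, and in the weakest quartile, with 301 and 265 sites, it was 20 and 0 bp.

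**Figure D4:**
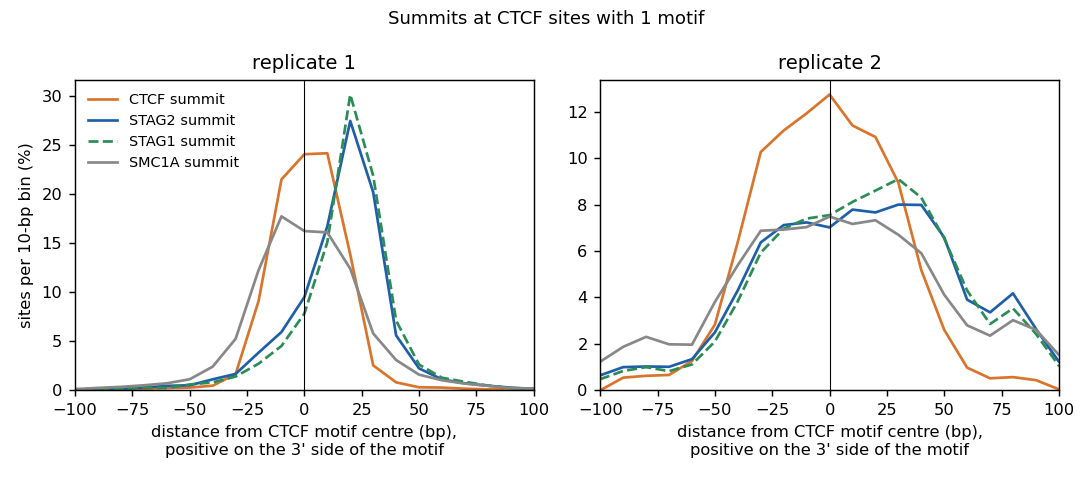
Distribution of CTCF, STAG2, STAG1 and SMC1A summits around the centre of the CTCF core, in percent of sites per 10-bp bin, at CTCF sites with 1 core and peaks of every antibody, with 1 panel per replicate and its own vertical scale. STAG2 and STAG1 lie to the right of 0, which is the 3′ side of the motif, with medians of 15 to 20 bp, and CTCF and SMC1A are centred near 0.

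The core was more frequent at CTCF sites with STAG2, 24.5% and 18.8%, than at those without, 14.3% and 10.1%, a difference of 9.50 points ± 1.05 (SD, n = 2). At equal CTCF strength the order turned. In the fifth decile, for example, 13.0% of sites with STAG2 and 18.6% of sites without STAG2 held the core in replicate 1, and 7.46% and 14.7% did in replicate 2. Averaged over all deciles the difference was −10.3 points, from −13.3 in replicate 1 to −7.29 in replicate 2. The strongest decile of CTCF sites has 3 and 2 sites without STAG2. Over deciles with at least 20 sites of each class it was −7.60 points.

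The other cohesin subunits were then compared at STAG2 sites. SMC1A peaks lay at 83.9% and 86.2% of CTCF-bound STAG2 sites and at 56.8% and 69.6% of CTCF-free ones, a difference of 21.9 points ± 7.39 (SD, n = 2). STAG1, the other STAG subunit, lay at 87.1% and 86.6% of CTCF-bound and at 29.7% and 37.04% of CTCF-free sites, a difference of 53.5 points ± 5.54 (SD, n = 2). Neither subunit was found at 35.1% and 26.7% of CTCF-free STAG2 sites, against 5.78% and 6.16% of CTCF-bound ones. CTCF sites without STAG2 had SMC1A in 16.8% and 20.7% and STAG1 in 10.3% and 12.9% of cases.

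Within deciles of STAG2 strength with at least 20 sites of each class, the SMC1A difference was smaller or turned. The STAG1 difference was smaller but kept its direction in the fifth decile. In the weakest decile SMC1A lay at 53.1% of CTCF-bound and 43.1% of CTCF-free sites in replicate 1. The shares were 49.2% and 47.3% in replicate 2. In the fifth decile, SMC1A lay at 73.1% of CTCF-bound and 77.4% of CTCF-free STAG2 sites in replicate 1, and at 80.7% and 89.0% in replicate 2. STAG1 in the same decile lay at 84.6% of CTCF-bound and 55.8% of CTCF-free sites in replicate 1, and at 83.3% and 52.5% in replicate 2. Averaged over deciles with at least 20 sites of each class, the SMC1A difference was 1.28 and −2.68 points and the STAG1 difference 24.2 and 20.7 points. With every decile counted the SMC1A difference of replicate 1 was 11.9 points, a value that the ninth decile with its 1 CTCF-free site raised.

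**Figure D5:**
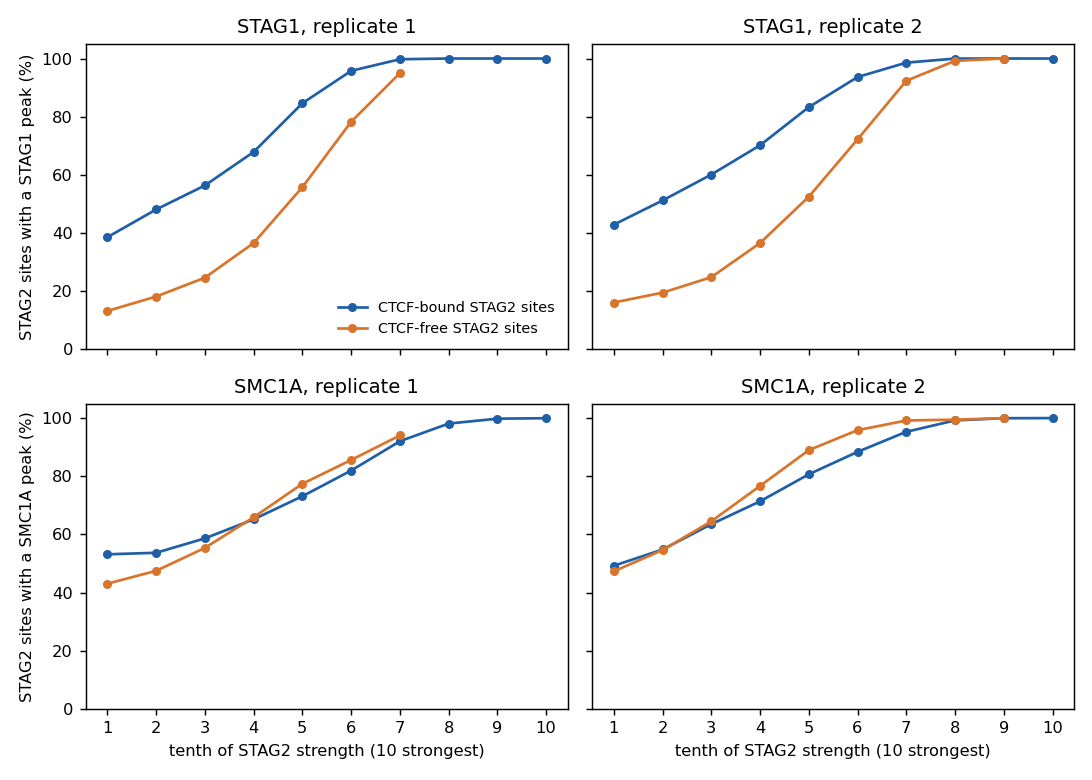
Share of CTCF-bound (blue) and CTCF-free (orange) STAG2 sites with a STAG1 peak (top) or a SMC1A peak (bottom), in percent, by decile of STAG2 strength and replicate, for deciles with at least 20 sites of the class. In the fifth decile STAG1 is at 84.6% and 83.3% of CTCF-bound against 55.8% and 52.5% of CTCF-free sites, while the SMC1A curves cross.

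CTCF-free STAG2 sites were more often absent from the STAG2 list of STAG2 KD cells, 67.3% and 43.8%, than CTCF-bound ones, 18.9% and 12.2%. The difference was 40.0 points ± 11.8 (SD, n = 2). Strength moved with this result as well: averaged over all deciles of STAG2 strength the difference was 7.83 and 7.21 points. In the fifth decile, 42.6% of CTCF-free and 28.3% of CTCF-bound sites were absent in replicate 1, and 19.2% and 10.7% in replicate 2. Absence means no peak past the authors' threshold, not a test of differential binding.

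Single sites showed the range of each class. The strongest CTCF-bound STAG2 site, chr19:34268815-34269467, lay between genes 4.73 kb from CHST8, a sulfotransferase gene, and had a STAG2 fold of 75.1 in replicate 1 and 50.6 in replicate 2. CTCF folds there were 127 and 83.1, and SMC1A folds 97.9 and 53.5. The next sites lay near ZBTB32 (STAG2 fold 73.8 and 38.6), in a noncoding part of an exon of NRSN2 (73.5 and 47.4), in an intron of CORO7 (74.5 and 46.6), in introns of LINC00461 and MEF2C-AS2 (74.8 and 42.9), and at the promoter of the potassium channel gene KCNH1 (64.8 and 48.1). All 6 kept a STAG2 peak in STAG2 KD cells in both replicates, with folds of 41.2 to 73.7 in replicate 1 and 21.3 to 45.5 in replicate 2.

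The leading CTCF-free STAG2 sites were weaker. At promoters they were led by chr5:81147158-81148026, at the noncoding gene ENSG00000249483, with a STAG2 fold of 24.1 and 21.95 and a SMC1A fold of 29.6 and 21.1. The promoter of TBL1X, a subunit of corepressor complexes, followed with 27.4 and 24.7 (chrX:9430732-9431461). Sites near starts of ENSG00000237525, RNU6-712P and HMGB1P22 had folds of 14.1 to 16.1 in replicate 1 and 14.8 to 18.6 in replicate 2. Away from promoters the leading sites were an intergenic one on chromosome 8 near LINC02950 (27.4 and 19.8) and an intergenic one near LINC02038 (21.4 and 16.6). They were followed by an intron of SOX6 (18.6 and 13.0), DNA near SCARB1 (16.7 and 15.0), an intron of TRPV3 (15.4 and 13.4) and an intron of CCDC26 (17.1 and 14.7). These 6 held SMC1A and STAG1 in both replicates. The CTCF-free sites named here stood at percentiles 66.1 to 77.1 of their list in replicate 1 and 82.7 to 89.4 in replicate 2, while the CTCF-bound leaders were all at 99.86 or higher.

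Of the 6 leading CTCF sites without STAG2, 3 lay beside variable segments of antigen receptor genes, which are not rearranged outside lymphocytes. They were at TRAV8-3 (chr14:22320057-22320880, CTCF fold 70.7 and 47.4), IGKV2-30 (82.2 and 26.2) and IGHV3-11 (55.4 and 41.6). Further sites lay near ITM2C (41.8 and 29.7) and at the promoter of TMC8 (56.4 and 37.7). Of these 5 sites, 4 had a SMC1A peak of low fold in replicate 1, at 4.45 to 10.9, and all 5 had one in replicate 2, at 2.96 to 9.53. Among all CTCF sites within 5 kb of variable segments, 37.7% (117 of 310) and 33.6% (124 of 369) lacked STAG2. Over all CTCF sites the shares were 33.4% and 32.4%. The Wilson intervals near the segments, 32.5 to 43.3 and 29.0 to 38.6, take sites as independent and are not a test of this difference. STAG2 sites near the segments were CTCF-free in 3 of 199 (1.51%) and 4 of 254 (1.57%) cases, against 27.4% and 31.3% of all STAG2 sites. These segments were looked at after the leading sites were seen.

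Promoters of named genes were read as any site within 1 kb of any annotated start of the gene. Of 20090 protein-coding genes, 8720 (43.4%) had a CTCF-bound STAG2 site in both replicates, 704 (3.504%) had CTCF-free STAG2 sites and no CTCF-bound one in both, 521 (2.59%) had CTCF without STAG2 in both and 4956 (24.7%) had none of these in both. The other genes changed class between replicates. List counts below stand beside these shares and were not tested.

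The IRF9 gene encodes the DNA-binding subunit of the interferon-activated complex ISGF3, and was the gene the study followed. Its promoter held a CTCF-bound STAG2 site (chr14:24630098-24630580) with a STAG2 fold of 20.5 and 17.9, at percentiles 72.2 and 82.8, and a CTCF fold of 94.9 and 53.6. CD274, which encodes PD-L1, had a STAG2 fold of 36.9 and 30.8 and a CTCF fold of 49.6 and 45.2 at its promoter. Both promoters were thus CTCF-bound in both replicates. Folds of different antibodies are not on the same scale, so percentiles within each list are compared. At IRF9 the CTCF percentiles, 93.9 and 94.2, were above those of STAG2. At CD274 the CTCF percentiles, 75.2 and 86.7, were below those of STAG2, 83.8 and 93.2. ISG15, a ubiquitin-like modifier induced by interferon, had its strong CTCF-bound site at an upstream alternative start (STAG2 fold 35.0 and 18.97). Its site at the downstream start had a STAG2 fold of 3.5, CTCF-bound, and 2.69, CTCF-free. USP18, which removes ISG15 from proteins, was CTCF-free in both, with a STAG2 fold of 6.09 and 6.69. IRF7 had no site in replicate 1 and a weak CTCF-bound one in replicate 2 (3.27).

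Of 22 interferon signaling genes, 8 (36.4%) were CTCF-bound in both replicates, among them IRF1, JAK1, MX1, IFI6 and IFNAR2. The receptor gene IFNAR1 was CTCF-free in replicate 1, with no CTCF peak, and CTCF-bound in replicate 2, where the strongest CTCF peak had a fold of 3.80. IFI27 and IFI44 had no site in either. USP18 was the 1 gene of the list that was CTCF-free in both.

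Of 13 antigen presentation genes, 4 (30.8%) were CTCF-bound in both: B2M, the invariant chain of class I molecules, the class I transactivator NLRC5, the trimming peptidase ERAP1, and CD274. In replicate 1 the B2M call rested on a weak STAG2 site of fold 3.62 (percentile 3.09), and the other B2M site, of fold 3.71, was CTCF-free. HLA-C, TAPBP and PSMB8 had no site in either replicate, and HLA-B and TAP2 were CTCF-bound in replicate 1 only. The replicates differed in this stretch as a whole. Between 28 and 34 Mb of chromosome 6, replicate 1 had 27.2 STAG2 sites per Mb, against 24.8 on the rest of the chromosome, and replicate 2 had 13.3 against 39.3. The lack of sites there in replicate 2 moved with these gene counts, and its part in them was not tested.

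Of 17 melanocyte lineage genes, 10 (58.8%) were CTCF-bound in both replicates, among them the transcription factors MITF, SOX10, PAX3 and TFAP2A. A further 3 (17.6%) were CTCF-free in both: TYR and DCT, enzymes of melanin synthesis, and the channel gene TRPM1. The STAG2 fold at the TYR promoter was 6.10 and 4.99, and no CTCF peak lay within 1 kb of a start in either replicate. At DCT it was 9.45 and 10.5, over a site that was 0.681 kb wide in replicate 1 and 2.90 kb wide in replicate 2. At SOX10 the strongest STAG2 site had a fold of 21.9 and 14.9 with CTCF at 82.8 and 32.9, and at TFAP2A the folds were 48.2 and 20.8 with CTCF at 64.2 and 29.1. PMEL, which forms the fibrils of melanosomes, had weak STAG2 (4.14 and 4.70) beside stronger CTCF (23.7 and 16.9).

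MAPK feedback genes and targets were mostly CTCF-bound, 14 of 16 (87.5%) in both replicates, against 43.4% of all genes. STAG2 intervals at DUSP4, SPRY4 and SPRED1 spanned 5.87, 4.70 and 4.46 kb in replicate 2. A broad interval meets a CTCF peak more easily, and the part of width in this count was not tested. DUSP6, the phosphatase that switches off ERK, changed class between replicates. In replicate 1 its strongest STAG2 site was 3.11 kb wide with a fold of 13.2 and no CTCF peak. In replicate 2 a STAG2 interval of 8.27 kb (fold 11.9) met a CTCF peak of fold 3.71. EGR1, an immediate early gene, had STAG2 at 30.8 and 25.6 with CTCF at 99.97 and 58.3. IER3 lies in the stretch of chromosome 6 described above and had no site in replicate 2.

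Among 15 genes of cohesin and its regulators, 10 (66.7%) were CTCF-bound in both. The STAG2 gene itself carried one of the stronger sites, with a STAG2 fold of 69.4 and 42.0 (percentiles 99.6 and 99.7) and a CTCF fold of 113 and 65.8. STAG1 had 48.1 and 29.8 with CTCF at 95.4 and 50.4, and the CTCF gene had 34.8 and 18.9. ESCO2, an acetyltransferase that establishes cohesion, was CTCF-free in both, with a fold of 4.19 and 4.86. SMC1A, SMC3 and WAPL had no site in replicate 1 and a CTCF-bound one in replicate 2.

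Clustered protocadherin genes, whose promoter choice depends on CTCF, were CTCF-bound in 45 of 53 cases (84.9%) in both replicates, and none was CTCF-free in both. HOX genes were CTCF-bound in 17 of 39 cases (43.6%), near the share of all genes, and 9 had no site in either. Ribosomal protein genes were CTCF-bound in 44 of 85 cases (51.8%). CTCF-free STAG2 without a CTCF-bound site was found at 14 of them (16.5%) in both replicates, against 3.504% of all genes, among them RPL19, RPL23, RPS6 and RPS27A.

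A few gene bodies held several STAG2 sites that were free of CTCF in both replicates. SPRY2, a feedback inhibitor of receptor signaling, held 4 such sites among 6 STAG2 sites within 5.15 kb. Of these 4, 3 had the summit in coding sequence. ALB, the albumin gene, held 10 STAG2 sites, all CTCF-free in both and all with the summit in a coding exon, and SERPINA1, another gene best known from liver, held 3 of 3 of this kind. FTH1, MFSD12, SMAD7 and DCT held 4 of 4, 6 of 13, 5 of 9 and 5 of 6 STAG2 sites that were CTCF-free in both. Of these CTCF-free sites 1, in DCT, had a coding summit. Over all STAG2 sites, 27.4% and 31.3% were CTCF-free in replicates 1 and 2. Over all CTCF-free STAG2 sites, 2.63% and 1.63% of summits lay in coding sequence. Genes were ranked here by CTCF-free sites per length, after the values were seen, and why exons of ALB and SERPINA1 carry peaks was not tested.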

How the data were processed

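ChIP-seq of STAG2 and CTCF in WT M14 cells was analysed from the peak lists, with 1 list per library, and WT STAG1, WT SMC1A and STAG2-KD STAG2 lists were used for overlap alone. Per the study's methods, the authors aligned reads to hg19 with bowtie2, removed low-quality and duplicate reads with samtools and picard, and called peaks with MACS2 against input. The submitters' processing notes name BWA, SAMtools, Picard and deepTools for replicate 2, so its aligner is not settled. Libraries of replicate 1 were size-selected with beads and those of replicate 2 on gels, and replicate 2 lists extend to −log10 p-values of 2 with weak q-values. The deposited columns are a score, a fold enrichment over background (a ratio), −log10 p-value and −log10 q-value, and the summit position. The score was not used, and fold and −log10 p-value served to describe and rank peaks within a list.

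Sites on chromosomes 1 to 22 and X were kept, which left out 3.49% and 4.67% of rows in replicate 1 and 0.207% and 0.271% in replicate 2. Depth was recovered from the background pileup at which fold and p-value match exactly in the largest share of sampled peaks (22.7% to 34.2%), taking 2.7 Gb as genome size and the narrowest interval as fragment length. Genes come from GENCODE 44 lifted to GRCh37, which has the coordinates of hg19, and positions are 1-based. Sites named are the 6 with the lowest sum of ranks by p-value in each class, the 8 genes the study names and members of fixed gene lists. Genes under dense sites and variable segments were added later. A few named sites and genes are not reported here. The members, lists and motifs were chosen with earlier results of these data known. Sites of a list are not replicates, so no test was made, and values are given per replicate with mean and SD. Overlap, motif scan and depth recovery were tested on simulated data. Analyses used python 3.11.15, numpy 2.4.6, pandas 2.3.3, scipy 1.17.1 and pysam 0.24.0.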

Additional observations from a re-analysis of the deposited data

How the results depend on the processing

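For 11 results, 83 alternatives were computed, 22 of them leaving out a replicate. Of the other 61, 37 moved a mean by less than the SD between replicates, 19 moved it further and 5 turned its sign, and 8 of the 61 were chosen after seeing the data. Keeping only peaks with a −log10 q-value of 5 or more gave 76.9% of STAG2 sites with CTCF and 31.7% of CTCF sites without STAG2. The STAG1 difference was then 40.3 points, at 49.6 and 30.9 in replicates 1 and 2. The difference in sites absent after STAG2 KD was 27.2 points, at 42.3 and 12.2. With the 79048 strongest sites of each list, CTCF without STAG2 was 28.1% and the STAG1 difference 43.3 points, at 57.1 and 29.5. An overlap of 50% of the shorter interval gave 33.8% for CTCF without STAG2. With summits within 100 bp in place of overlap, STAG2 with CTCF was 59.8%, at 67.5% and 52.0% in replicates 1 and 2. CTCF without STAG2 was 43.8%, at 38.1% and 49.4%. By the same rule the CTCF percentile difference was 44.4, the motif difference 12.4 and the SMC1A difference 40.6. The promoter difference was −10.2 points for STAG2 and −6.74 for CTCF. With 1 mismatch the motif difference was 12.3.

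With strength held in deciles, the promoter difference was −1.57 points for STAG2 and 2.78 for CTCF. Held in the same way, the motif difference was −10.3, SMC1A 4.60, STAG1 25.3 and absence after STAG2 KD 7.52 points. In deciles with at least 20 sites of each class, the promoter difference was 4.83 points for STAG2 and 6.57 for CTCF. In those deciles the motif difference was −7.60, SMC1A −0.702, STAG1 22.5 and absence after STAG2 KD 8.64 points. Leaving out a replicate, the promoter difference ran from −7.17 to 4.49 for STAG2 and from −0.146 to 8.14 for CTCF, so neither has a settled direction. The cause of these shifts was not tested, except that shorter lists and held strength follow from the alternatives themselves. Each difference was taken within a replicate and is thus paired by its number. No paired analysis was possible that could reach significance, because an exact test on 2 pairs cannot give a two-sided p below 0.5.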
